A study of Marchantia polymorpha with 9 samples.

Results

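A set of 57 gene IDs of the liverwort Marchantia polymorpha had more reads in both genotypes labelled OX and KO than in WT. The 57 were chosen by their measured levels from the 19287 gene IDs of the count table, 18596 of which the selection rule admitted. A member had to reach at least 1.5 times the WT level in OX and again in KO, with every OX and every KO library above every WT library. Its mean in its highest genotype had to be at least 1 CPM, CPM being the reads of a gene per 1000000 reads of the library. The levels against WT therefore chose the members, and all values against WT below are descriptions, from which no test is drawn. The rule left out 113 IDs named as Y-chromosome genes and 578 IDs on scaffolds (assembled pieces of the genome) with fewer than 3 gene IDs.

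RNA was sequenced from whole thalli, the flat body of the plant, at the age of 10 days. All plants were males of the Cambridge strain raised from gemmae, the vegetative propagules formed in cups on the thallus, on agar plates with long days. The labels WT, OX and KO are taken as wild type, overexpression and knockout, and each has 3 libraries from biological replicates, which the labels do not divide into lines. The labels give neither the gene that was altered nor the promoter or allele used, and if each genotype is a single line, its effect and that of the line cannot be told apart.

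The series concerns the MIXTA branch of the MYB transcription factors, DNA-binding proteins known in flowering plants for shaping epidermal cells and for promoting the cuticle. The cuticle is the layer of cutin and wax that seals the surface of land plants against water loss. A liverwort thallus carries one as well, over an epidermis with air pores above chambers of green filaments. Overexpression adds product of a factor and a knockout removes it, and the genes described here had the same direction in both, as the selection rule required. Both ratios divide by the mean of the same WT libraries. The rise in OX and the rise in KO are therefore not independent observations, and a low WT value raises both. The count table gives no gene names, and 0 of its IDs matched the 18391 rows of the RefSeq gene table of assembly MpTak2_v7.1. The members are therefore named by ID alone, no function is given for any of them, and the lists of cuticle, cell wall, phenolic and cell type genes drawn up for this work could not be applied, so that the labelled tissue was not checked by its markers. The row of the altered MYB gene was not identified.

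Library totals ran from 44802998 to 57696744 counts. All 173583 values in the table were even, so that a read pair appears to count as 2. A count of 0 allows up to 3 pairs, or 0.104 to 0.134 CPM in a library, for counting error alone. The table gives no gene lengths, so CPM are compared between genotypes of the same gene and not between genes. In thallus libraries more cells of a type and more RNA per cell cannot be told apart.

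The members spanned a wide range of reads and mostly moderate ratios. Their median level was 1.95 CPM in WT, 5.98 CPM in OX and 7.05 CPM in KO, and the median over all 14813 genes tested was 19.5 CPM over the 9 libraries. The median log2 ratio to WT, taken with 0.1 CPM added to each mean, was 1.20 in OX and 1.17 in KO. At least 2-fold higher levels in both genotypes were found in 29 members. Another 8 reached 2-fold in OX alone, 6 in KO alone, and 14 stayed under 2-fold in both. At 4-fold or more in both there were 6 members, and at 16-fold or more there was 1, Mapoly0005s0110. With 0.5 CPM added in place of 0.1, the log2 ratios of Mapoly0005s0110 were 3.33 in OX and 3.47 in KO, under 16-fold. By WT level, 18 members had 0.1 to 1 CPM, with median log2 ratios of 1.45 in OX and 1.41 in KO. The 24 members at 1 to 10 CPM had medians of 1.15 and 1.14, and the 12 at 10 to 100 CPM had 1.17 and 1.06. The remaining members were 2 under 0.1 CPM and 1 over 100 CPM in WT. At the lowest WT levels the minimum of 1 CPM admits only larger ratios, so nothing is read from the differences between these classes. In 18 members the lowest OX or KO library had at least 2 times the CPM of the highest WT library. The rule itself required this separation without the 2-fold limit, and the same was not counted over all genes. Summed over the members, the WT libraries had 471, 477 and 550.1 CPM, the OX libraries 1130.4, 1260.2 and 1224 CPM, and the KO libraries 1100.01, 1215 and 1095 CPM. Without Mapoly0029s0081, Mapoly0137s0006 and Mapoly0033s0062, which took the most reads, the sums were 255, 271 and 322 CPM in WT. They were then 591, 680 and 689 CPM in OX and 704, 770 and 700 CPM in KO, with every KO library above every OX library. All 3 IDs left out had larger means in OX than in KO (227 and 215, 197 and 122, and 128 and 74.5 CPM). Leaving them out thus lowered the OX sums more, and with all members the OX and KO sums overlapped. The larger mean was in OX for 28 members and in KO for 29. The rise of the sums over WT follows from the selection rule.

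**Figure D1:**
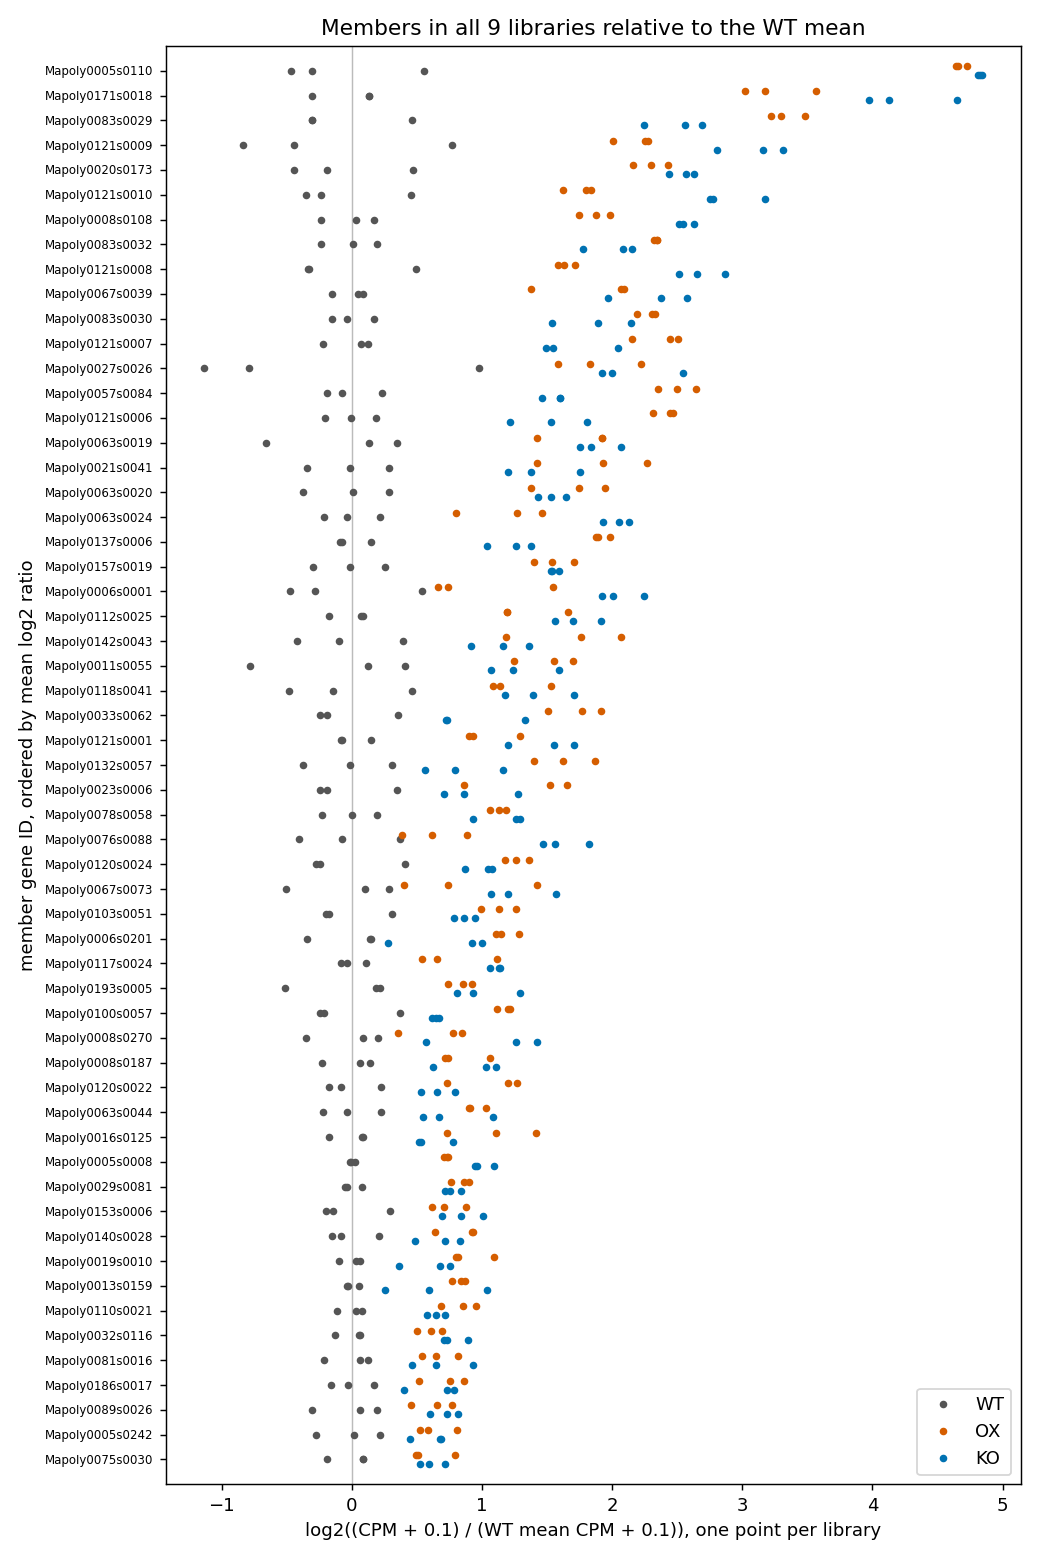
All 57 members, one row per gene ID and one point per library, on the log2 ratio to the WT mean after adding 0.1 CPM; grey points are WT, orange OX and blue KO. The OX and KO points lie to the right of the WT points in every row, as the selection rule requires, and in most rows the OX and KO points mix or lie close together while the top rows reach ratios of 16-fold and more.

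A group of 3 members had hardly any reads in WT and clear levels in both other genotypes. Mapoly0005s0110 had 0.0698, 0.0893 and 0.244 CPM in WT replicates 1 to 3, 6.12, 5.75 and 5.81 CPM in OX, and 6.55, 6.48 and 6.61 CPM in KO. Its 11 pairs in WT compared with 495 in OX and 565 in KO, ratios of summed reads of 42.7 (95% exact binomial interval 23.6 to 86.1) and 47.5 (26.3 to 95.6). The 6 libraries of OX and KO lay within a narrow band, far above WT. Mapoly0171s0018 had 0.0349, 0 and 0.0349 CPM in WT, 1.01, 0.901 and 1.36 CPM in OX, and 2.06, 1.84 and 2.99 CPM in KO, so that WT, OX and KO formed separate steps. With 2 pairs in WT its ratios were 43.6 (11.7 to 366) in OX and 91.5 (25.0 to 761) in KO. Mapoly0083s0029 showed the other order, with 0, 0 and 0.0697 CPM in WT, 1.28, 1.11 and 1.05 CPM in OX, and 0.697, 0.485 and 0.626 CPM in KO. Its 2 WT pairs, both in replicate 3, gave ratios of 45.5 (12.3 to 381) in OX and 24.0 (6.33 to 204) in KO. Such intervals pool the pairs of the 3 libraries of a genotype and leave out the spread between replicates. Without molecular identifiers 2 reads may stem from 1 molecule, so the intervals may be too narrow even for counting error. The same ratios chose the members, and no test is drawn from the intervals. The other 55 members had reads in every library, and Mapoly0171s0018 and Mapoly0083s0029 were the 2 members at 0 in any WT library.

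**Figure D2:**
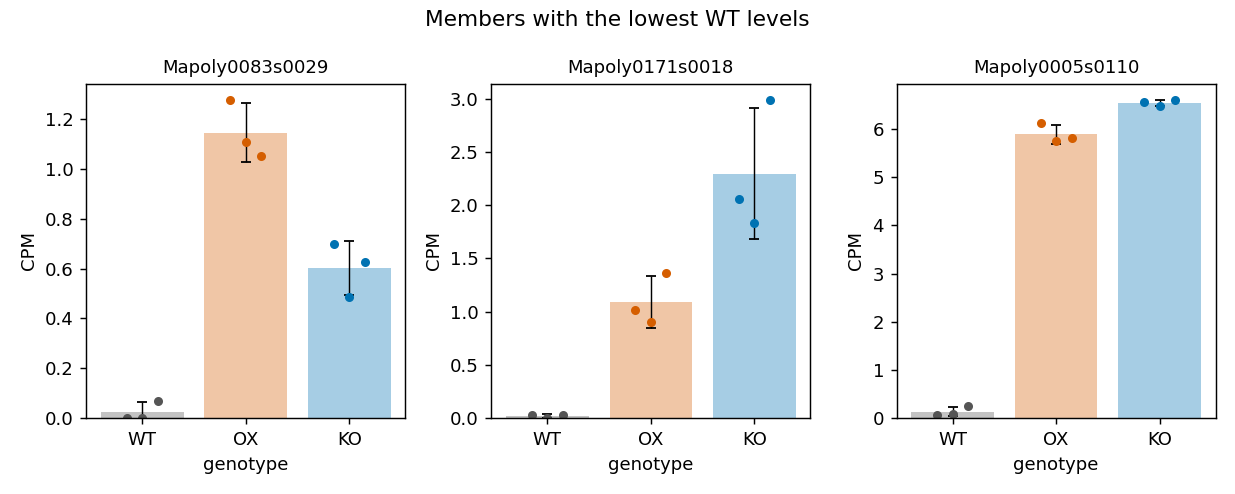
The 3 members with the lowest WT levels; bars are genotype means in CPM, error bars the SD over 3 libraries and points the libraries. WT sits at or near 0 in all 3 panels, and the higher of the other genotypes is OX for Mapoly0083s0029 and KO for Mapoly0171s0018.

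Among members with at least 5 CPM in a genotype, the largest ratios in OX after that of Mapoly0005s0110 were those of Mapoly0057s0084, Mapoly0083s0032 and Mapoly0020s0173. Mapoly0057s0084 had 2.24, 2.05 and 2.79 CPM in WT, 12.4, 13.8 and 15.3 CPM in OX, and 6.66, 7.35 and 7.34 CPM in KO, so that its means were 5.87 and 3.02 times that of WT. The 3 genotypes did not overlap, with KO between WT and OX. Mapoly0020s0173 had 0.978, 0.804 and 1.60 CPM in WT, 5.41, 6.52 and 5.95 CPM in OX, and 7.49, 6.55 and 7.17 CPM in KO, 5.28 and 6.27 times WT. Here the KO libraries lay just above those of OX, but the test of OX against KO given later was not passed (edgeR, adjusted p = 0.183). In KO the largest ratios after Mapoly0005s0110 were those of Mapoly0121s0009, Mapoly0121s0010 and Mapoly0121s0008, consecutive IDs that are described with their neighbours later.

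The 4 members that took the most reads had OX means from 1.80 to 3.79 times and KO means from 1.71 to 2.91 times those of WT. Mapoly0029s0081 had 134, 123 and 122 CPM in WT, 236, 229.9 and 214 CPM in OX, and 226, 213 and 207 CPM in KO. Its OX and KO libraries overlapped at 1.80 and 1.71 times WT, and its replicates were close together. Mapoly0137s0006 had 49.5, 49.0 and 57.6 CPM in WT, 194, 206 and 191 CPM in OX, and 107, 135 and 125 CPM in KO, with OX clear of KO. Mapoly0033s0062 had the same order, with 32.3, 33.7 and 49.0 CPM in WT, 109, 145 and 131 CPM in OX, and 63.2, 96.6 and 63.7 CPM in KO. Mapoly0063s0020, next in reads, had 19.8, 25.9 and 31.5 CPM in WT, 67.1, 86.6 and 99.3 CPM in OX, and 74.5, 80.9 and 69.7 CPM in KO. Its OX libraries spread on both sides of the KO libraries.

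Near the thresholds the values shade into those of other genes. Mapoly0032s0116 and Mapoly0075s0030 were the members closest to the limit in OX (log2 ratios 0.60 and 0.61), and Mapoly0072s0041 and Mapoly0045s0021 lay just outside it (0.57 and 0.55). In KO the members closest to the limit were Mapoly0005s0242 and Mapoly0019s0010 (0.61 each), and Mapoly0080s0012 and Mapoly0188s0007 lay just outside (0.58 and 0.57). By level, Mapoly0011s0055 and Mapoly0006s0001 were just inside, with highest means of 1.07 and 1.09 CPM, and Mapoly0090s0024 and Mapoly0178s0011 just outside, with 0.904 and 0.828 CPM. In all, 28 IDs failed the OX ratio alone, 30 the KO ratio alone, 27 the level alone and 13 the separation from WT alone.

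Several members carried neighbouring numbers on 1 scaffold. The 57 members were spread over 40 of 260 admitted scaffolds, and 8 scaffolds held more than 1 member, 25 members in all. Scaffold 0121 held 6 members and scaffold 0063 held 4. Of the 288 admitted IDs numbered within 3 of a member, 12 (4.17%) were members themselves, and of all admitted IDs 0.307% were. These 12 formed 4 runs, of 5 members on scaffold 0121, 3 on scaffold 0083 and 2 each on scaffolds 0063 and 0120. Numbers stand for the order of the gene models, and no distances are given here. Without the sequences it was not checked whether neighbours are copies of a gene, and reads of near-identical copies may have been shared out or dropped in the authors' counting, so that the levels of single IDs within a run are uncertain.

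The run on scaffold 0121 covered every ID from Mapoly0121s0006 to Mapoly0121s0010 and split into 2 patterns. Mapoly0121s0006 had 0.733, 0.536 and 0.628 CPM in WT, 3.94, 3.54 and 3.88 CPM in OX, and 1.60, 2.46 and 2.02 CPM in KO. Mapoly0121s0007 had 0.419, 0.536 and 0.558 CPM in WT, 2.59, 3.33 and 3.18 CPM in OX, and 1.60, 1.66 and 2.40 CPM in KO. In both IDs all OX libraries were above all KO libraries, as in 33.7% of all genes tested. The next 3 IDs had the opposite order, with all KO libraries above all OX libraries, as in 18.6% of all genes tested. Mapoly0121s0008 had 1.47, 1.47 and 2.68 CPM in WT, 6.38, 5.82 and 6.02 CPM in OX, and 11.2, 14.3 and 12.3 CPM in KO. Mapoly0121s0009 had 0.559, 0.402 and 1.43 CPM in WT, 4.17, 3.50 and 4.23 CPM in OX, and 6.17, 8.81 and 7.90 CPM in KO. Mapoly0121s0010 had 0.733, 0.804 and 1.36 CPM in WT, 3.61, 3.19 and 3.71 CPM in OX, and 7.18, 9.53 and 7.10 CPM in KO. In each of these 3 IDs WT replicate 3 was the highest WT library and KO replicate 2 the highest KO library.

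The selection rule set no limit on OX against KO, though it used the same libraries, and the test of that contrast separated the parts of this run. Log2 fold changes of OX against KO were 0.82 ± 0.18 (SE, adjusted p = 0.00534) for Mapoly0121s0006 and 0.61 ± 0.19 (SE, adjusted p = 0.0306) for Mapoly0121s0007 in edgeR's quasi-likelihood test, adjusted over all 14813 genes. They were -1.13 ± 0.19 (SE, adjusted p = 0.00106) for Mapoly0121s0008, -1.02 ± 0.30 (SE, adjusted p = 0.022) for Mapoly0121s0009 and -1.26 ± 0.20 (SE, adjusted p = 0.00075) for Mapoly0121s0010. The calls for Mapoly0121s0006, Mapoly0121s0008 and Mapoly0121s0010 held without any 1 library. That for Mapoly0121s0007 was lost without OX replicate 2 or 3 or KO replicate 1 or 2 (adjusted p = 0.0866 to 0.103), and that for Mapoly0121s0009 without any 1 OX library or KO replicate 2 (adjusted p = 0.0509 to 0.0881). The IDs on either side of the run did not share its pattern. Mapoly0121s0005 had 9.61 ± 0.564 CPM in WT, 4.58 ± 0.132 in OX and 7.21 ± 0.934 CPM in KO (SD, n = 3), highest in WT. Mapoly0121s0011 had at most 0.14 CPM in any library, near the limit of detection. The sixth member on this scaffold, Mapoly0121s0001, had 0.337 ± 0.0405 CPM in WT, 0.806 ± 0.143 in OX and 1.14 ± 0.215 CPM in KO, and the test of OX against KO was not passed (adjusted p = 0.0729).

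On scaffold 0083 the members were Mapoly0083s0029, Mapoly0083s0030 and Mapoly0083s0032. Mapoly0083s0030 had 2.37, 2.05 and 1.88 CPM in WT, 9.95, 10.8 and 11.0 CPM in OX, and 8.09, 6.31 and 9.67 CPM in KO. Mapoly0083s0032 had 2.24, 1.96 and 1.64 CPM in WT, 10.3, 10.1 and 10.3 CPM in OX, and 8.58, 6.90 and 9.01 CPM in KO. Both IDs had the same order of genotypes, and KO replicate 2 was the lowest KO library of each. The ID between them, Mapoly0083s0031, met every criterion except the minimum level, with 0, 0 and 0.0697 CPM in WT, 0.451, 0.659 and 0.770 CPM in OX, and 0.697, 0.589 and 0.766 CPM in KO. Mapoly0083s0028, just before the run, had 214, 211 and 213 CPM in WT, 296, 321 and 309 CPM in OX, and 575, 549 and 493 CPM in KO and fell short of the limit in OX alone (log2 ratio 0.54). KO was thus highest in Mapoly0083s0028, and OX had the highest mean in Mapoly0083s0029, Mapoly0083s0030 and Mapoly0083s0032. The next ID, Mapoly0083s0033, also had every OX and KO library above WT, by less, with 70.2 ± 1.27 CPM in WT, 83.4 ± 2.40 in OX and 77.9 ± 1.69 CPM in KO, log2 ratios of 0.25 and 0.15. None of the 3 members passed the test of OX against KO (edgeR, adjusted p = 0.094, 0.0991 and 0.138). Their 95% intervals for the log2 difference were 0.05 to 1.65 for Mapoly0083s0029, 0.01 to 0.63 for Mapoly0083s0030 and -0.02 to 0.52 for Mapoly0083s0032, before adjustment for the number of genes. Mapoly0083s0029 did pass with DESeq2, with halved counts, in a fit without WT and without WT replicate 3 (adjusted p = 0.0179 to 0.0356). Mapoly0083s0030 passed without KO replicate 3 (adjusted p = 0.0242) and in the fit with a replicate block (adjusted p = 0.0467).

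**Figure D3:**
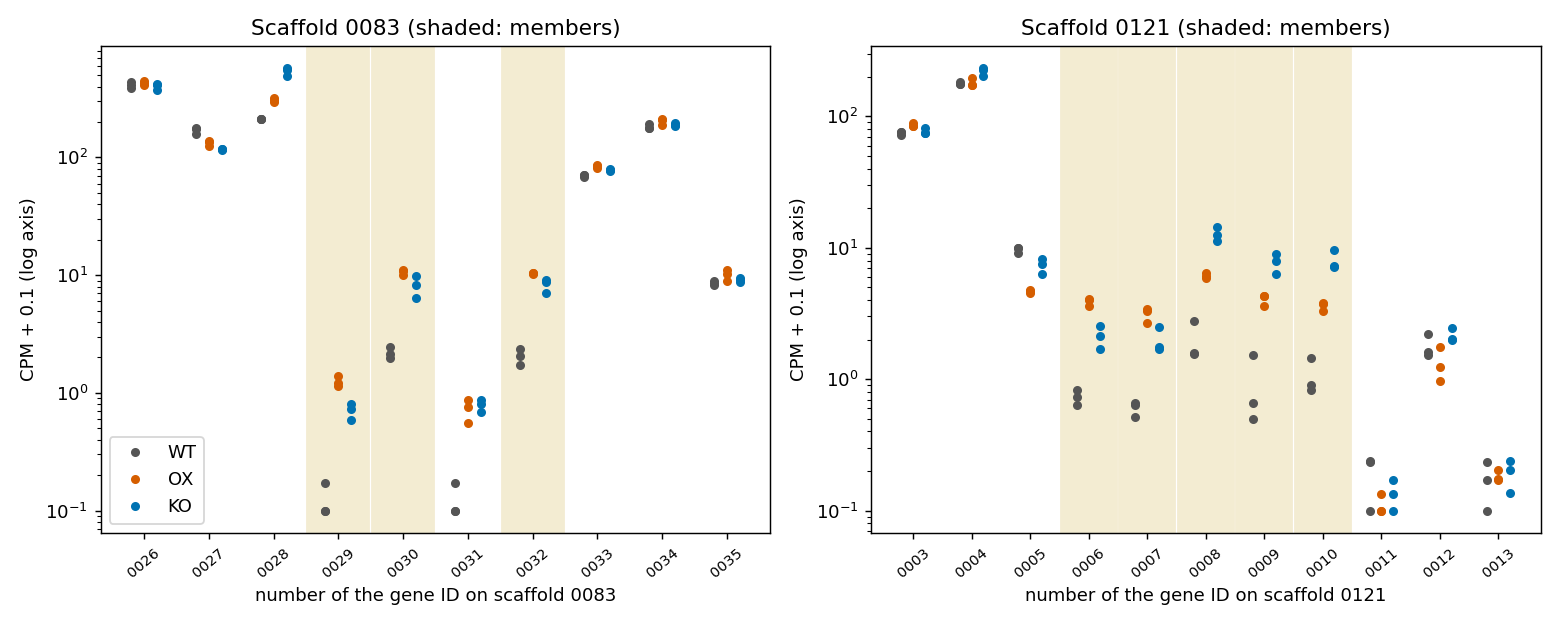
Levels along the runs of members on scaffold 0083 (left) and scaffold 0121 (right), from 3 IDs before to 3 IDs after each; the log axis gives CPM with 0.1 added, one point per library, with members shaded. On the right the OX points (orange) are above the KO points (blue) in Mapoly0121s0006 and Mapoly0121s0007 and under them in the next 3 IDs. On the left Mapoly0083s0031 also rises from WT to OX and KO, from a WT level near the limit of detection. Unlike the members beside it, its mean was larger in KO (0.684 CPM) than in OX (0.626 CPM).

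On scaffold 0063, Mapoly0063s0019 and Mapoly0063s0020 are consecutive. Mapoly0063s0019 had 4.23, 7.37 and 8.58 CPM in WT, 18.2, 25.8 and 25.7 CPM in OX, and 24.3, 28.5 and 23.0 CPM in KO, and replicate 1 was the lowest WT and the lowest OX library of both IDs. Mapoly0063s0024, a few numbers on, had 17.0, 19.2 and 22.9 CPM in WT, 34.5, 47.7 and 54.4 CPM in OX, and 82.3, 86.8 and 75.5 CPM in KO. It was higher in KO than in OX by a log2 fold change of OX against KO of -0.92 ± 0.15 (SE, adjusted p = 0.000867) in edgeR, whereas Mapoly0063s0019 and Mapoly0063s0020 did not pass that test. The members Mapoly0120s0022 and Mapoly0120s0024 stand on either side of Mapoly0120s0023, which had 48.2 ± 3.54 CPM in WT, 44.8 ± 0.682 in OX and 39.9 ± 1.55 CPM in KO and did not follow them. The pair on scaffold 0063, with Mapoly0063s0024, and the pair on scaffold 0120 were picked with their values known.

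The comparison of OX with KO asks whether genes above WT in both genotypes reached the same level in each. All 57 members passed the low-count filter of this test. Of them 18 (31.6%) differed between OX and KO, and of all genes tested 34.7% did. Higher levels in OX were found in 7 members (12.3%), against 15.6% of all genes, and lower levels in 11 (19.3%), against 19.1%. The share of members that differed was thus close to that of all genes. In CPM, all OX libraries were above all KO libraries in 14 of the 57 members and in 33.7% of all genes tested. The reverse held in 12 of the 57 members and in 18.6% of all genes tested. CPM are scaled by library size alone, which leans to OX, with a median log2 difference of 0.075 over all genes. With library size as the only scaling 8 members were higher and 9 lower in OX, while over all genes 62.7% of the calls were higher in OX in place of 45.1%. For the other 39 members the test was not passed, which does not show that their levels were equal; the median standard error of their log2 differences was 0.19. The median log2 difference over the members was -0.08, against -0.0023 over all genes, and the median size of the difference regardless of direction was 0.36, against 0.19. Members had fewer reads than most genes, and the part of low counts in this larger spread was not tested. For comparison with the selection, 54 members passed the test for a rise in OX against WT, where 10.5% of all genes did, and 57 passed in KO against WT, where 6.51% did; nothing is read from these counts, since the rule used the same libraries. The 3 members without a call in OX against WT were Mapoly0006s0001, Mapoly0008s0270 and Mapoly0067s0073.

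Members with more reads in OX than in KO were led by Mapoly0057s0084, already given, with a log2 fold change of 0.88 ± 0.12 (SE, adjusted p = 0.000208). Next among the called members without overlap came Mapoly0121s0006. Mapoly0132s0057 had 0.314, 0.223 and 0.418 CPM in WT, 1.43, 1.01 and 1.19 CPM in OX, and 0.627, 0.520 and 0.835 CPM in KO. Its difference was 0.79 ± 0.27 (SE, adjusted p = 0.0419), and the call was lost without WT replicate 1, OX replicate 1 or 3, or KO replicate 1 or 2. For Mapoly0033s0062 the difference was 0.70 ± 0.20 (SE, adjusted p = 0.0182), and the call was lost without OX replicate 2 or KO replicate 1 or 3. Mapoly0137s0006 differed by 0.61 ± 0.088 (SE, adjusted p = 0.00043) and kept its call under every alternative run. KO lay between WT and OX in these IDs, which follows from the rule and from their choice as members higher in OX. The seventh member higher in OX was Mapoly0100s0057 (log2 fold change 0.46), whose call was lost without any 1 OX or KO library other than OX replicate 1.

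Members with fewer reads in OX than in KO were led by Mapoly0121s0010. Mapoly0006s0001 had 0.105, 0.134 and 0.314 CPM in WT, 0.376, 0.728 and 0.350 CPM in OX, and 0.976, 1.25 and 1.04 CPM in KO. OX replicates 1 and 3 were just above the highest WT library, and the difference of -1.24 ± 0.37 (SE, adjusted p = 0.0243) was not called without OX replicate 1 or 3 or KO replicate 2. Mapoly0171s0018 differed by -1.14 ± 0.27 (SE, adjusted p = 0.00781) and Mapoly0121s0008 as given. Mapoly0076s0088 had 18.3, 23.0 and 31.4 CPM in WT, 31.7, 45.0 and 37.2 CPM in OX, and 67.3, 85.9 and 71.9 CPM in KO. Its lowest OX library barely exceeded its highest WT library, and OX was lower than KO by a log2 fold change of -1.06 ± 0.18 (SE, adjusted p = 0.0012). The remaining members lower in OX were Mapoly0008s0108, Mapoly0112s0025, Mapoly0117s0024 and Mapoly0005s0008, with log2 fold changes of -0.81, -0.45, -0.40 and -0.35. The calls for Mapoly0112s0025 and Mapoly0117s0024 were lost without OX replicate 1 or 2 or KO replicate 2 or 3, and for the latter also without KO replicate 1. Both were lost with library size as the only scaling (adjusted p = 0.0514 and 0.0675), and that for Mapoly0117s0024 in a fit without WT (adjusted p = 0.0508). At the other end, Mapoly0029s0081 had a log2 difference of -0.002 with a 95% interval of -0.13 to 0.12 before adjustment, and Mapoly0005s0110 one of -0.23 with an interval of -0.60 to 0.14. Mapoly0076s0088 was singled out after its values were seen. All adjusted p-values here are from edgeR over all genes. They judge a difference against the spread between the libraries of the fit, without regard to replicate number.

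**Figure D4:**
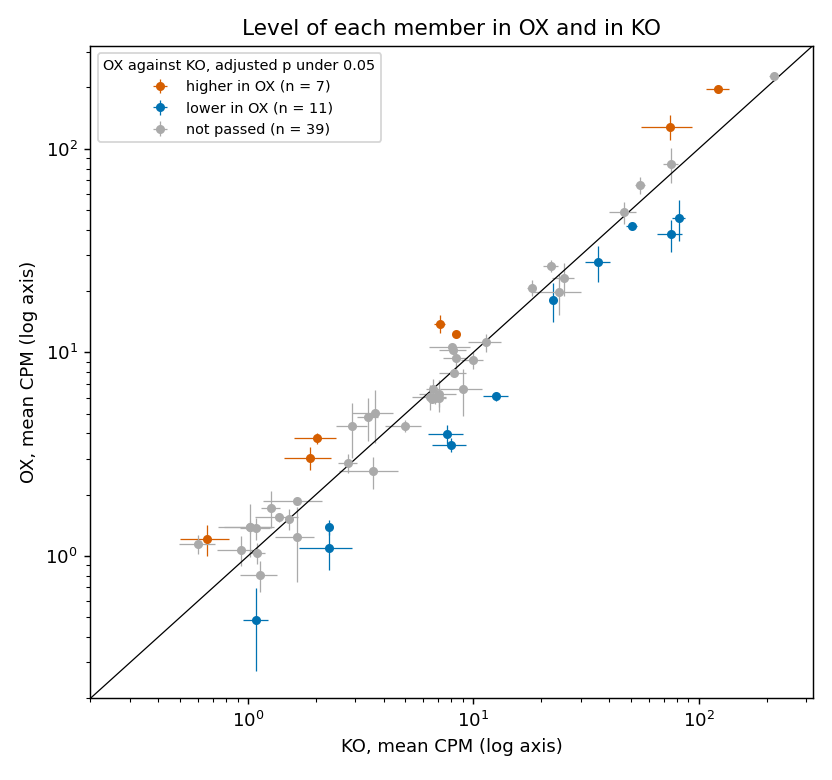
Mean level of each member in KO (horizontal) and in OX (vertical) in CPM on log axes; error bars are the SD over 3 libraries, colours the result of edgeR's test and the line equal levels. The members lie on both sides of the line, with 7 called above it and 11 under it.

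**Figure D5:**
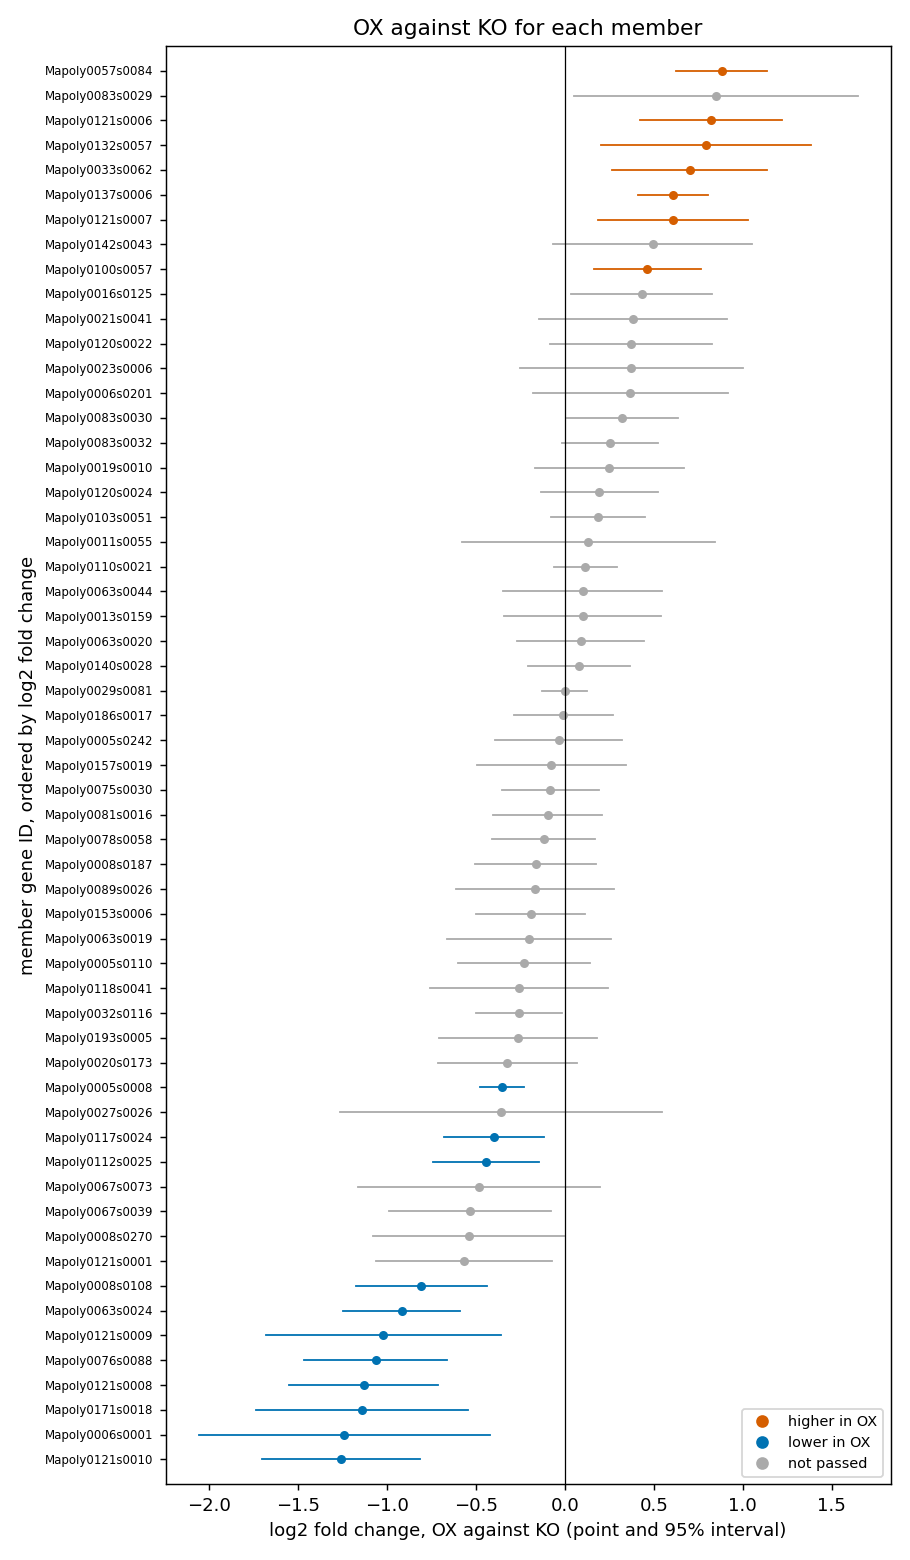
Log2 fold change of OX against KO for all 57 members with its 95% interval, not adjusted for the number of genes, so that some grey intervals leave out 0. Values run from -1.26 for Mapoly0121s0010 to 0.88 for Mapoly0057s0084. The median size of the difference regardless of direction is 0.36 over the members and 0.19 over all genes tested.

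Single libraries bore on the set. WT replicate 3 was the highest WT library for 34 of 57 members (59.6%) and for 43.1% of the 12578 admitted IDs with at least 1 CPM in a genotype. KO replicate 2 was the highest KO library for 25 members (43.9%) and for 16.6% of those IDs. Mapoly0027s0026 is an example of the former, picked with its values known, with 2.97, 2.32 and 10.3 CPM in WT, 15.8, 24.7 and 18.7 CPM in OX, and 20.0, 30.8 and 21.1 CPM in KO. WT replicate 3 enters both the WT mean and the separation from WT, and without it the rule gave 89 members, 50 of them among the 57. Leaving out any other library gave 54 to 69. In all, 42 members were kept whichever library was left out. With a library left out the separation from WT is easier to meet. Members could thus be lost only through a ratio or the minimum level, and new ones could enter by the looser separation. Without KO replicate 2 the members that differed between OX and KO numbered 11 (19.3%) in place of 18, and of all genes 27.1% were called in place of 34.7%. The 7 higher in OX became 4 without OX replicate 2, OX replicate 3 or KO replicate 2 and 3 without KO replicate 1, and the 11 lower became 7 without OX replicate 1 or KO replicate 2. Over all genes, leaving out any 1 OX or KO library left 27.1% to 30.3% called. The part of these libraries in the results was not tested further.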

How the data were processed

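Libraries of total RNA from 9 samples were analysed from the authors' deposited table of raw counts, with a column for each and 0 columns of other samples. The submitters' processing notes list STAR 2.5.1b and featureCounts 1.5. Neither the settings nor strand use nor a genome build is given in the sources used here. Gene IDs are of gene models version 3.1, per the file's row names.

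CPM were counts divided by the column total, times 1000000. Members were found by the ratio of genotype means with 0.1 CPM added. The members and all lists were chosen with earlier results of these data known. Tests used edgeR 4.0.16 in R 4.3.3: filterByExpr, TMM factors (0.958 to 1.04), 1 mean per genotype over all 9 libraries, a quasi-likelihood F test and Benjamini-Hochberg adjustment over 14813 genes at 0.05, checked on simulated data. The simulated counts were drawn independently for each library, so the check does not cover the likeness of same-numbered libraries given below. Standard errors were derived from F. Alternatives used DESeq2 1.42.0, limma 3.58.1 (voom), other scalings and filters, halved counts and each library left out. No RNA batch is labelled, and all library names carry the same flow cell and lane.

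Named members are the 4 largest ratios in OX and in KO (at least 5 CPM in a genotype), the 4 with the most reads, the 4 largest differences in each direction between OX and KO among members past the threshold without overlap, the 2 IDs on each side of each threshold, and runs of 3 or more neighbours. Others are marked as chosen after their values were seen.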

Additional observations from a re-analysis of the deposited data

How the results depend on the processing

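The set held 54 to 89 members without 1 library at a time, the highest without WT replicate 3, and 56 with TMM, DESeq2 or upper-quartile scaling, 54 of them among the 57. It held 29 at a 2-fold minimum, 34 at a minimum of 5 CPM, 39 with a selection pseudocount of 1, 68 with small scaffolds kept and 65 by edgeR calls of 1.5-fold or more in place of the rule (52 among the 57). The first 3 of these are stricter by construction, and leaving out a library makes the separation from WT looser by construction.

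For OX against KO, leaving out 1 library gave 11 to 20 members that differed, 3 to 8 higher in OX and 7 to 12 lower. With library size alone the numbers were 8 higher and 9 lower (39.3% of all genes called), and with DESeq2 8 and 12 (36.2%); other scalings, filters, limma-voom, halved counts, a fit without WT and a minimum of 1.5-fold stayed within 1.5 times of those reported. Of 398 recomputed differences of 21 single members, 356 kept their side of the threshold, 36 lost it, 6 gained it and 0 changed direction. Of the 18 called, 10 kept the call throughout. Of 308 recomputed ratios to WT of 11 named members, 12 moved by more than the replicate spread, all to smaller ratios with a larger pseudocount, 2 of them at 0.5 CPM and 10 at 1 CPM (log2 1.20 to 2.73).

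The labels give no meaning to a replicate number beyond its value. Same-numbered libraries had deviations from their genotype's mean that correlated at 0.0464 to 0.481 (7 of 9 pairs over 0.1), others at -0.491 to 0.010, and in 18 of 18 cases the same number gave a library its highest correlation. With the replicate number as a block 23 members differed, 10 higher and 13 lower in OX, including all 18, and 44.4% of all genes were called in place of 34.7%. At this depth levels under about 0.134 CPM are not told from 0.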
